A study of Rattus norvegicus with 47 samples.

Results

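The arrays described here are liver expression profiles of vitamin A-deficient rats killed 16 h after a dose of all-trans-retinoic acid (at-RA), set against vehicle-treated deficient rats. They were chosen by title within the kinetic study, the second of 3 experiments: 3 arrays at 16 h and 3 labelled untreated 0 h, 6 of the 47 arrays of the series. The series measured liver RNA on single-colour Affymetrix rat arrays, with 1 rat liver per array. All 16 rats of the kinetic study were female Sprague-Dawley animals of 8 weeks. Their dams and, from weaning, the rats themselves were fed a purified AIN-93G diet with deficient vitamin A, so that the controls shared the deficiency. Treated rats received about 100 ug of at-RA and were killed at 3, 6, 10 or 16 h (3, 3, 4 and 3 rats). The controls are titled untreated, while their treatment notes say vehicle only for 0 h. There was thus no vehicle rat at 16 h, and hour of the day, feeding and handling cannot be told apart from at-RA. The route of dosing, litter and scan batch are not stated for these rats, so that a shared batch was not tested.

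Retinoic acid, made from retinol, binds nuclear receptors that pair with retinoid X receptors on target genes. In the liver it induces the enzymes that dispose of it: Cyp26a1 and Cyp26b1 oxidize retinoic acid, Lrat esterifies retinol for storage and Dhrs3 reduces retinal back to retinol. The receptor gene Rarb is itself a target. Stellate cells hold most of the hepatic retinyl ester, and hepatocytes carry out most of the oxidation.

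The 16 h arrays, replicates 1 and 2 above all, differed from the rest before any gene was considered. The 4 bacterial hybridisation controls averaged 8.55, 7.65 and 7.10 (deposited log2 units above the array median) on 16 h replicates 1, 2 and 3, against 6.31 to 7.34 on the 13 earlier arrays. The actin 3′ control was 3.29, 3.84 and 5.23 at 16 h, and 4.66 to 6.15 on the 13 earlier arrays (5.38 to 6.10 with vehicle). Replicates 1 and 2 lay outside the range of the earlier arrays on both measures, and replicate 3 lay within it. The differences between 3′ and 5′ probes, which grow as RNA degrades, were 0.34 to 0.66 for GAPDH at 16 h and 0.36 to 0.95 before. The 3 pairs of 16 h arrays correlated at r = 0.64 to 0.71, and the vehicle pairs at 0.80 to 0.85. Albumin was the defining hepatocyte transcript checked, at 8.81 to 9.74 with vehicle and 9.54 to 10.9 at 16 h, and the summed hepatocyte markers were 12.0 to 12.5 and 12.3 to 12.7.

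**Figure D1:**
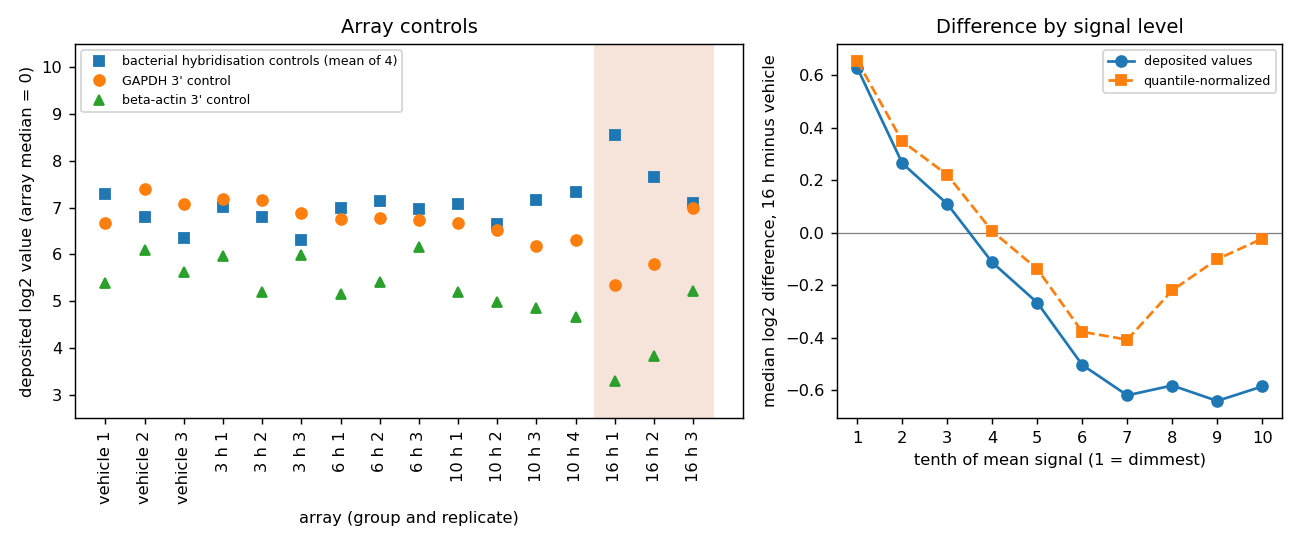
Left, control values on each of the 16 kinetic arrays in deposited log2 units (16 h shaded). Right, the median log2 difference between 16 h and vehicle in 10 bins of probe sets by mean signal, on both scales. The hybridisation controls were highest on 16 h replicates 1 and 2, where actin was lowest. On deposited values the brightest bin lay at -0.59 and bin 7 at -0.62; after quantile normalization they lay at -0.02 and -0.41.

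What was called depended on the scale. On deposited values 1154 of 13662 named genes were called (8.45%), 29 higher (0.212%) and 1125 lower (8.23%). A call is a Benjamini-Hochberg adjusted p under 0.05 in limma, over all 28869 probe sets tested. The median gene lay 0.48 log2 units below vehicle. After quantile normalization, which gives each array the same distribution of values, that median was -0.08. There were then 207 called genes (1.52%), 80 higher (0.586%) and 127 lower (0.930%). The deposited calls were 2.51% higher, and the quantile calls 38.6% higher.

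The retained changes, called on both scales, were 17 higher genes (0.124% of those tested) and 121 lower (0.886%). They made up 58.6% of the deposited higher calls and 10.8% of the lower ones, or 21.2% and 95.3% of the quantile calls. All 1154 deposited calls kept their sign after quantile normalization. Of the retained genes 15 higher and 83 lower were also called after scaling arrays to equal spread and after cyclic loess. Among the 17 and 121, 13 and 114 had non-overlapping groups, beside 2.97% of all genes above and 17.1% below. The calls used the same arrays, so this separation follows in part from the selection and is not added support.

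The number of calls also turned on single rats. On deposited values the count over probe sets was 1765 (6.11%), and it became 3207, 218 and 220 without vehicle replicates 1, 2 and 3. It was 510, 1066 and 4483 without 16 h replicates 1, 2 and 3. After quantile normalization 323 (1.12%) became 227, 194 and 103 without the vehicle replicates in turn, and 272, 361 and 1368 without the 16 h replicates. Fitting the 6 arrays alone, where the spread is not shared with the earlier times, left 28 deposited probe-set calls. Of the 108 genes called on deposited values that are named by rule below, 80 lost that call when at least 1 of the 6 arrays was left out, and 23 moved by over 1.5 times. Of the retained genes, 27 were called on both scales in each of the 6 fits that left out 1 array, 4 of them higher and 23 lower. These 27 were picked out after their values were seen.

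**Figure D2:**
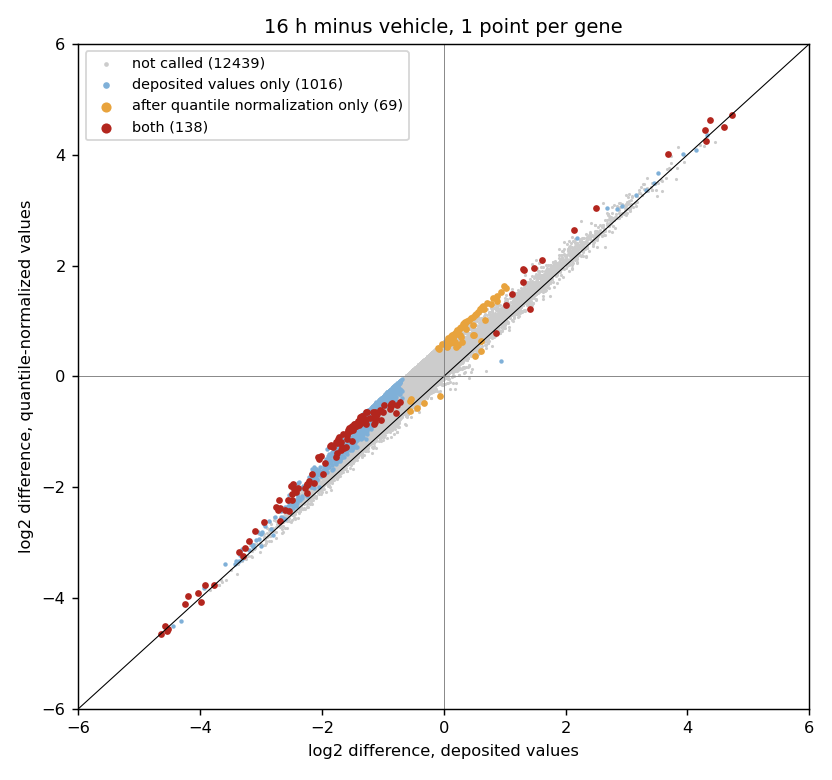
Each point is 1 named gene, by its log2 difference (16 h minus vehicle) on deposited values and after quantile normalization; the line marks equality. The cloud is shifted upward from the line, as the median gene moves from -0.48 to -0.08, and the 17 rises and 121 falls called on both scales are marked.

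The 4 rises among these 27 were Cyp2c22, Igfbp2, Ifi27l2b and Angptl8. Cyp2c22 is a cytochrome P450 that can oxidize retinoic acid. Its deposited values were 2.54, 7.11 and 2.83 with vehicle and 7.40, 7.46 and 8.68 at 16 h. Each 16 h rat exceeded each vehicle rat, but vehicle replicate 2 lay close to the treated rats. The rise was 3.68 ± 0.60 (SE; adjusted p = 0.000957), and 4.02 ± 0.58 after quantile normalization (adjusted p = 0.000433). It was 5.16 without vehicle replicate 2, 2.87 without replicate 1 and 3.02 without replicate 3. Cyp2c22 was as high at the earlier times, with differences from the same vehicle rats of 3.76, 4.38 and 4.61 at 3, 6 and 10 h. The contrast of 16 h with 3 h was -0.08 (adjusted p = 0.96); 12.0% of genes were called in that contrast on deposited values and 1.65% after quantile normalization.

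Igfbp2 encodes a circulating binding protein of insulin-like growth factors. It read 1.21, 1.55 and -1.96 with vehicle and 2.32, 2.65 and 3.33 at 16 h, a rise of 2.5 ± 0.51 (adjusted p = 0.00615; 3.03 after quantile normalization). The groups did not overlap, and vehicle replicate 3 was far below its fellows: the rise was 1.39 without it. Angptl8, a secreted regulator of lipoprotein lipase, went from 1.86, 3.18 and 2.72 to 3.79, 3.86 and 4.01. That is 1.30 ± 0.29 (adjusted p = 0.00977; 1.94 after quantile normalization). Its difference from vehicle was 2.06 at 3 h, 1.37 at 6 h and 0.81 at 10 h, the last not called. Ifi27l2b, of an interferon-inducible family, went from 5.94, 5.39 and 5.27 to 6.84, 6.68 and 7.54, a rise of 1.49 ± 0.27 (adjusted p = 0.00244). It was the only one of 31 measured interferon response genes called higher on either scale. Among all genes 0.212% were called higher on deposited values and 0.586% after quantile normalization. In the list 4 were called lower on deposited values and 0 after quantile normalization, beside 8.23% and 0.930% of all genes.

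The remaining 13 retained rises were less steady, each losing its call on at least 1 scale when 1 array was left out. Sult1c3, a sulfotransferase, read -3.70, 1.49 and -4.05 with vehicle and 2.36, -0.11 and 4.61 at 16 h. The groups overlapped through vehicle replicate 2, the same rat that was high for Cyp2c22. The fitted rise was 4.37 ± 0.94 (adjusted p = 0.00803), 6.16 without that rat and 3.39 without vehicle replicate 3, when it was no longer called (adjusted p = 0.0854). Cyp2c7, another cytochrome P450 of the retinoid-responsive 2C family, went from 7.43, 8.53 and 6.86 to 9.40, 8.70 and 8.94, a rise of 1.41 ± 0.28 (adjusted p = 0.00561; 0.0786 without vehicle replicate 3, where the rise was 1.04).

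Other metabolic genes were among them. Gnmt, which consumes methyl groups by methylating glycine, rose by 1.30, and 1.70 after quantile normalization. Thrsp, a lipogenic protein, rose by 1.12 and Eci3, an enoyl-CoA isomerase, by 1.02. Adss1 of adenine nucleotide synthesis rose by 1.62; its groups overlapped, and without vehicle replicate 3 it was 0.92 (adjusted p = 0.28). The hydroxysteroid sulfotransferase Sult2a6 rose by 0.85. Rpp21, a ribonuclease P subunit, rose by 1.32 and the ribosomal protein gene Rpl39 by 2.14. Thrsp was lower than vehicle at 10 h (-1.39, adjusted p = 0.0206) and so did not keep 1 direction over the time course. The last 4 rises, Runx1t1, H2bc1, Gpr162 and Cfap100, were fitted at 4.30 to 4.74. All 4 lay far below the array median with vehicle, at means of -4.66 to -3.95. At 16 h their means lay near the array median, between -0.31 and 0.44. In vehicle replicate 3 H2bc1 and Cfap100 read -5.315, the lowest value on that array, so the size of their rises is uncertain.

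The promoter window that bears most directly on at-RA is that of Cyp26a1, shown because its 2 receptor motifs stand in the spacing that retinoic acid receptors prefer. RefSeq promoter windows (250 bases before and 50 after each start, build GRCr8) were searched on both strands for AGGTCA and AGTTCA. Cyp26a1 lies on the plus strand of chromosome 1, and the 250 bases before its start (chr1:244883572-244883821) read as follows with the motif matches in capitals. The Cyp2c22 stretch, on the minus strand (chr1:248980768-248981017), is shown beside it as 1 of the 4 rises called with each array left out.
Cyp26a1: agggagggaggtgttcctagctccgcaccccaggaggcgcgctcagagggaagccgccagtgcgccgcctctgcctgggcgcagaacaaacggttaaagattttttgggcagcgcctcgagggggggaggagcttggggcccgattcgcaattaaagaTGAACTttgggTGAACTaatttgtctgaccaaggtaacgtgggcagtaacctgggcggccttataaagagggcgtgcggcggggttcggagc
Cyp2c22: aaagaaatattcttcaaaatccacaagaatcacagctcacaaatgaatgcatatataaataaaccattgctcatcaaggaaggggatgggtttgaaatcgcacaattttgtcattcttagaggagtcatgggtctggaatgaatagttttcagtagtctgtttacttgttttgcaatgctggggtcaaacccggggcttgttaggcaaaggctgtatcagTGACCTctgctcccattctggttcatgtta

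In Cyp26a1 the sites span bases 92 to 87 and 81 to 76 before the start, 5 bases apart in 1 direction. Of 33469 promoters 10 held such a pair (0.0299%). No retained rise with a promoter in the table did (0 of 14), while 7 of the 14 held at least 1 motif, beside 27.9% of all promoters. Among the 17 matched genes of the list of retinoic acid receptor targets, 5 held a motif. A gene counted if any of its windows held a match, while the 27.9% is a share of single windows. The units are unlike, so the gene counts cannot be weighed against that share. A match describes letters in a window, not binding.

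Cyp26a1 itself did not pass the test at 16 h. Its values were -0.89, -1.14 and -4.73 with vehicle and 0.38, -2.71 and 4.16 at 16 h. Replicate 3 was within the range of the 10 h rats and replicate 2 within that of the vehicle rats. The difference was 2.86 ± 0.94 (adjusted p = 0.0643), and 2.86 after quantile normalization (adjusted p = 0.176). It was called without vehicle replicate 1 (3.54, adjusted p = 0.0294), without 16 h replicate 2 (4.52, adjusted p = 0.00432) and with replicate 3 as the only 16 h rat (6.41, adjusted p = 0.000155). At 3, 6 and 10 h, against the same vehicle rats, it was 6.30, 8.67 and 6.29, called each time. The fall from 3 h to 16 h was itself called on deposited values (-3.43, adjusted p = 0.0215) but not after quantile normalization (-3.14, adjusted p = 0.128).

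Cyp26b1 and Lrat were called on deposited values alone. Cyp26b1 read -4.57, 0.84 and -0.28 with vehicle and 1.30, -0.19 and 3.41 at 16 h, a difference of 2.84 ± 0.79 (adjusted p = 0.0316; 0.0761 after quantile normalization). Lrat read -0.39, 2.62 and -4.18 against 1.55, 1.14 and 3.41, a difference of 2.68 ± 0.82 (adjusted p = 0.0473; 0.0641 after quantile normalization). Both genes overlapped between groups, again through vehicle replicate 2. Lrat kept its call only without vehicle replicate 2 (4.31), and was lowest without vehicle replicate 3 (0.92, adjusted p = 0.435). Cyp26b1 kept its call without vehicle replicate 2 (3.93) and without 16 h replicate 2 (3.69). It was lowest without vehicle replicate 1 (1.23, adjusted p = 0.189). Neither Cyp26b1 nor Lrat was called between 16 h and 3 h by limma (-0.51 and -0.87, adjusted p = 0.765 and 0.583). At 10 h Cyp26b1 read 4.6 to 5.4 and Lrat 3.44 to 3.95, each above every 16 h rat. The contrast of 16 h with 10 h was not tested.

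The receptor gene Rarb and the retinal reductase Dhrs3 were lower at 16 h than at 3 h. Rarb lay at 3.25, 4.32 and 3.52 with vehicle, 5.25 to 5.71 at 3 h and 3.17, 2.56 and 3.78 at 16 h. Dhrs3 lay at 3.46, 4.45 and 4.17, then 5.31 to 5.93 at 3 h, and 3.37, 3.76 and 4.24 at 16 h. Against vehicle neither was called at 16 h (-0.53 and -0.24, or 0.08 and 0.37 after quantile normalization, where the sign turned). Against 3 h both were lower, by a difference of -2.31 (adjusted p = 3.61e-05) for Rarb and -1.83 (adjusted p = 8e-05) for Dhrs3. These held after quantile normalization at -1.59 (adjusted p = 0.000453) and -1.12 (adjusted p = 0.000575).

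Nr0b2, the orphan receptor that represses bile acid synthesis, and Dact2, a Wnt pathway regulator, were also lower than at 3 h. The contrast of 16 h with 3 h was -2.37 for Nr0b2 (adjusted p = 0.00118; -1.70 after quantile normalization). For Dact2 it was -3.65 (adjusted p = 0.00424; -3.42 after quantile normalization). Neither was called against vehicle at 16 h (0.32 and 0.13).

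**Figure D3:**
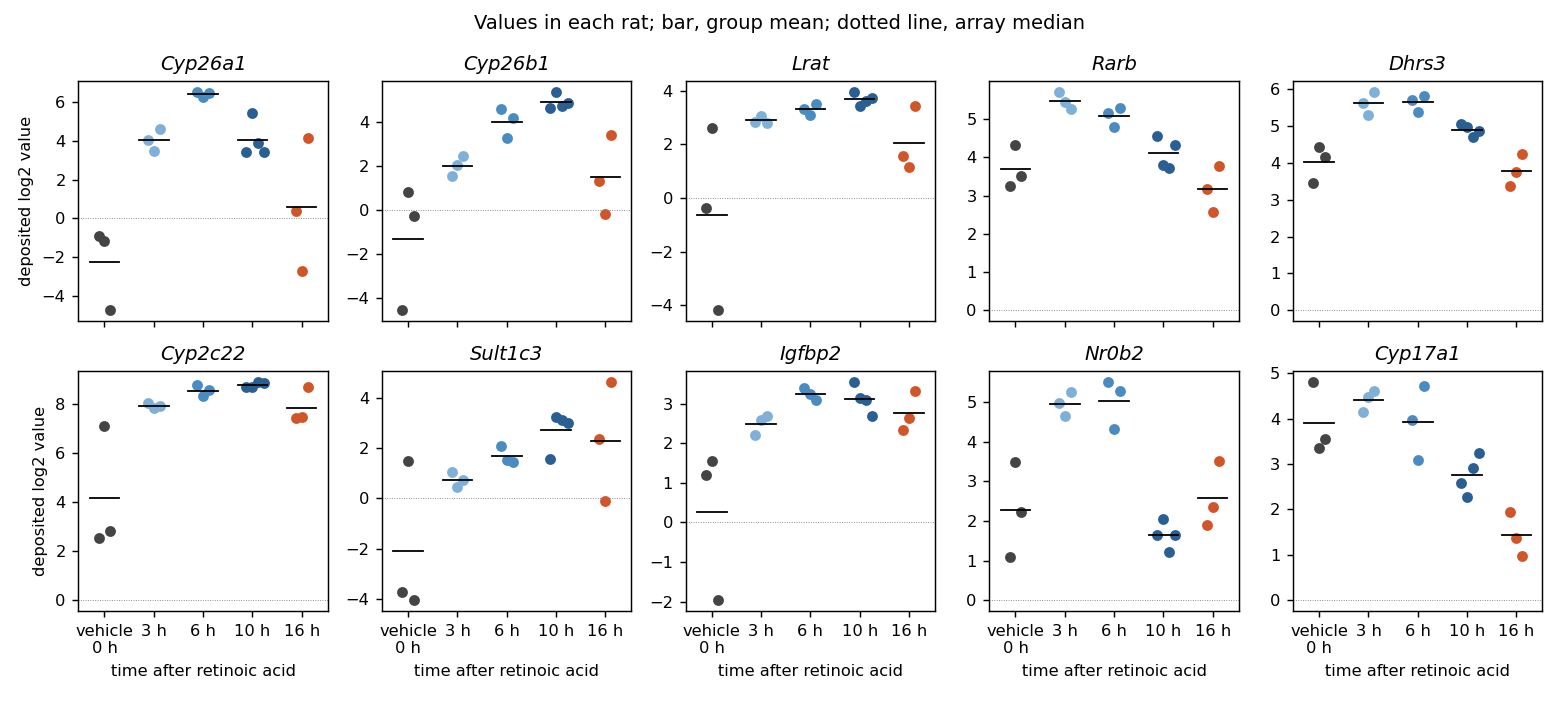
Deposited log2 values of 10 genes in each rat of the kinetic study; points are rats, bars group means and the dotted line the array median. Cyp2c22 and Igfbp2 stay above every vehicle rat at 16 h, Rarb, Dhrs3 and Nr0b2 lie within the vehicle range or near it, and Cyp17a1 falls below it.

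Over the whole list of retinoic acid receptor targets, 18 of 24 were measured. Of these 2 were called higher and 0 lower on deposited values, and 0 in either direction after quantile normalization. Of all genes 0.212% were called higher and 8.23% lower on deposited values, and 0.586% and 0.930% after quantile normalization. Their median difference was 0.16, beside -0.48 for all genes, and 0.42 beside -0.08 after quantile normalization. At 3, 6 and 10 h the list's deposited medians were 0.59, 0.51 and 0.34 against the same vehicle rats. Uncalled members included Cdx1 (1.93), Tgm2 (-0.81), Rai14 (-0.82), Crabp2 (-1.01), Cebpe (0.88), Stra6 (0.60), Nrip1 (-0.50), Pck1 (-0.48), Ucp1 (0.23), Fgf21 (0.18) and Tshz1 (-0.11).

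Of 18 measured genes that store, bind and oxidize retinoids, 3 were lower on deposited values, beside 8.23% of all genes: the retinal oxidase Aldh1a1 (-1.35), the retinol dehydrogenase Rdh11 (-1.21) and the ester hydrolase Ces1d (-0.85; -0.51 without vehicle replicate 2). None was called after quantile normalization, by limma on the same arrays, where the 3 lay at -0.73, -0.70 and -0.32. The 8 measured receptors and cofactors gave 1 deposited call, the corepressor Ncor1 (-0.93), and 0 after quantile normalization. Cyp3a9, a retinoid-responsive cytochrome P450, was called higher after quantile normalization alone (1.64, adjusted p = 0.0145; 0.99 as deposited). Cyp2a2, of male-type steroid metabolism, was called on neither scale (-1.40 and -0.78).

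Cyp17a1 was among the 121 retained falls. It encodes the steroid 17-alpha-hydroxylase, and read 4.80, 3.36 and 3.55 with vehicle and 1.95, 1.38 and 0.98 at 16 h. All 3 treated rats were below all 3 controls, by -2.47 ± 0.36 (adjusted p = 0.000389), or -1.93 after quantile normalization (adjusted p = 0.0162). At 3, 6 and 10 h it differed from vehicle by 0.50, 0.02 and -1.15, none called. The contrast with 3 h was -2.97 (adjusted p = 2.74e-05; -2.35 after quantile normalization, adjusted p = 0.00357). Against vehicle the fall was larger in the fit that kept only replicate 3 of the 16 h group (-2.92, adjusted p = 0.00149).

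Hamp encodes hepcidin, the hormone that blocks iron export. It went from 8.07, 8.20 and 7.93 to 5.89, 5.87 and 7.15, a fall of -1.76 ± 0.26 (adjusted p = 0.000411; -1.39 after quantile normalization). Replicates 1 and 2 were lower than replicate 3, and all 3 were below the controls. It differed from vehicle by -0.05 and 0.01 at 3 and 6 h, not called, and by -1.81 at 10 h (adjusted p = 0.000167). With replicate 3 as the only 16 h rat the difference was -0.91 (adjusted p = 0.20).

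Hamp was 1 of 4 retained falls among the 25 measured acute phase genes, beside 0.886% of all genes. With it were Crp (-0.76), Serpina3n (-1.14) and the complement inhibitor C4bpa (-0.71). Crp and C4bpa were called neither by scale normalization nor by cyclic loess. On deposited values each kept its call in 2 of the 6 fits that left out 1 array. On deposited values that list had 5 genes lower and 1 higher, beside 8.23% and 0.212% of all genes. The higher one was albumin (Alb, 0.94, or 0.56 without 16 h replicate 1). After quantile normalization 7 were lower and 0 higher, beside 0.930% and 0.586% of all genes. The extra 3 were the fibrinogen chains Fga, Fgb and Fgg, which lay at -0.33, -0.56 and -0.06 as deposited and -0.48, -0.62 and -0.36 after quantile normalization. The 2 probe sets of Fga differed in call, and by cyclic loess Fgg was 0.16. Stat3, which carries the interleukin-6 signal to these genes, was lower on deposited values alone (-1.41).

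Genes of glucose and fatty acid metabolism were also among the retained falls. Igfbp1, an insulin-repressed binding protein, went from 4.18, 4.70 and 5.24 to 2.19, 1.48 and 2.93, a fall of -2.51 ± 0.42 (adjusted p = 0.00131; -1.97 after quantile normalization). With replicate 3 as the only 16 h rat it was -1.77 and not called (adjusted p = 0.179). Pdk4, the kinase that shuts pyruvate out of the citric acid cycle, went from 5.74, 6.07 and 5.83 to 4.23, 4.06 and 4.83. Its fall was -1.51 ± 0.22 (adjusted p = 0.000389), or -0.90 after quantile normalization, and it held without each array in turn. Got1, the cytosolic aspartate aminotransferase, fell by 1.76 (1.19 after quantile normalization), and the desaturases Fads2 and Fads1 by 1.60 and 0.86. After quantile normalization Got1 kept its call in 4 of the 6 fits that left out 1 array, and Fads2 in 3. Fads1 kept its call in 2 of them on each scale, and was called neither by scale normalization nor by cyclic loess. Since the vehicle rats were killed at 0 h, feeding state and hour cannot be told apart from at-RA for these genes.

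Counts in the wider metabolic lists changed with the scale. Of all genes 8.23% were lower on deposited values and 0.930% after quantile normalization. Those shares do not allow for signal level, and lower deposited calls were most frequent among the brightest probe sets. Fatty acid oxidation and PPARA targets had 11 of 24 measured genes lower on deposited values (examples Acot2 -1.40, Angptl4 -1.34, Ehhadh -1.12), but 1, Pdk4, after quantile normalization. Cholesterol synthesis had 7 of 17 lower, among them Mvk (-2.61), Sqle (-1.85), Lss (-1.76) and Acat2 (-1.48), and 0 after quantile normalization. Mvk read -3.45, 0.85 and 1.73 at 16 h, and without replicate 1 it was -1.03 (adjusted p = 0.142). The median of the cholesterol synthesis list was -0.85, then -0.40. Fatty acid and triglyceride synthesis had 5 of 24 lower and 2 higher, Angptl8 and Thrsp; the lower ones included Lpin2 (-1.92). Lpin2 kept its call only without 16 h replicate 3 (-2.95), was -1.10 without 16 h replicate 2, and was 0.15 with replicate 3 as the only 16 h rat. Bile acid genes had 5 of 21 lower, Cyp8b1 (-1.67), Akr1d1 (-1.12), Abcb4 (-1.11) and Abcb11 (-0.89) among them; after quantile normalization 0 were lower and 2 higher. Cyp8b1 was -1.06 without vehicle replicate 3 and Akr1d1 -0.73 without 16 h replicate 2, neither called. Gluconeogenesis and amino acid catabolism kept Igfbp1 and Got1, while Tdo2 (-1.0; -0.62 without 16 h replicate 1) and Asl (-0.97) were called on deposited values alone.

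Among core clock genes 1 was called on both scales. Nfil3, a repressor of clock output genes, read 2.90, 3.73 and 1.79 with vehicle and -0.31, 0.22 and 2.10 at 16 h, a fall of -2.14 ± 0.45 (adjusted p = 0.0071; -1.93 after quantile normalization). The groups overlapped through 16 h replicate 3; with that rat alone at 16 h the difference was -0.71 (adjusted p = 0.745), and without vehicle replicate 2 it was -1.67 (adjusted p = 0.0875). Of 16 measured core clock genes 5 were lower on deposited values, Bmal1 (-2.03), Clock (-1.39), Npas2 (-2.06) and Rora (-2.32) besides Nfil3, beside 8.23% of all genes. In Bmal1, Clock, Npas2 and Rora 16 h replicate 1 was the lowest array, for Bmal1 at -2.33 beside 0.70 and 1.19. Without it the differences were -0.94, -0.90, -0.87 and -1.28, none called.

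After quantile normalization Nfil3 alone remained lower and Nr1d2, a nuclear receptor that represses Bmal1, was called higher (1.59, adjusted p = 0.0351; 1.03 as deposited). The list's median was -0.74, then -0.56. The uncalled members were Per2 (2.61), Per1 (0.91), Nr1d1 (0.85), Bhlhe41 (0.71), Bhlhe40 (0.23), Csnk1d (-0.47), Cry1 (-0.65), Per3 (-0.83), Cry2 (-1.65) and Csnk1e (-2.07). Of 14 measured clock output genes 1 was lower and 0 higher on deposited values, beside 8.23% and 0.212% of all genes. After quantile normalization 1 was lower and 2 were higher, beside 0.930% and 0.586%. The median of that list was 0.03, then 0.51, beside -0.48 and -0.08 for all genes. Its fall on both scales was Nampt of NAD synthesis (3.67, 3.73 and 3.92 to 2.11, 1.78 and 1.96). In limma Nampt differed by -1.83 ± 0.27 (adjusted p = 0.000389). Its 3 treated rats lay close together and well below the controls.

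Detoxification genes moved in both directions. On deposited values 0.212% of all genes were called higher and 8.23% lower. Of 22 drug metabolism genes 2 were higher and 3 lower on deposited values, and 6 higher and 1 lower after quantile normalization, where 0.586% and 0.930% of all genes were called. Cyp2c22 and Cyp2c7 rose on both scales. Cyp2c12 (0.45), Cyp2e1 (0.37), Cyp3a9 (1.64) and Cyp3a23-3a1 (0.74) were higher after quantile normalization alone. Cyp1a2, the hepatic aryl hydrocarbon-induced oxidase, fell on both (-1.11 ± 0.23, adjusted p = 0.00742; -0.67 after quantile normalization). The male-type Cyp2c11 was lower on deposited values alone (-1.55; -1.03 without vehicle replicate 3). Of 22 conjugation genes 1 was higher and 5 lower on deposited values, and 4 higher and 2 lower after quantile normalization. The higher ones were Sult1c3 on both scales and Gclm (0.97), Gsta4 (0.59) and Sult1b1 (0.53) after quantile normalization alone. The glutathione transferases Gstm1 and Gstm2 fell by 1.28 and 1.44 (0.86 for both after quantile normalization), while Gstp1 was called on deposited values alone (-1.56).

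Genes of the secretory pathway and of immune presentation were also retained. Hsp90b1, the chaperone of the endoplasmic reticulum, went from 6.23, 6.75 and 6.50 to 4.52, 4.67 and 5.74, a fall of -1.52 ± 0.25 (adjusted p = 0.0011; -0.96 after quantile normalization). Edem1, which sends misfolded glycoproteins to degradation, fell by 1.48 (0.93 after quantile normalization). These were 2 of the 8 lower genes, of 18 measured, in the stress list of that compartment, beside 8.23% of all genes; Dnajb9 (-1.54; -0.95 without 16 h replicate 1) and Pdia4 (-1.43) were called on deposited values alone. Replicate 3 was the highest treated rat in each of the 4.

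Cd74, the invariant chain of MHC class II, went from 5.09, 5.07 and 5.43 to 2.98, 3.20 and 4.26 (-1.71 ± 0.27, adjusted p = 0.000761; -1.09 after quantile normalization). RT1-Ba (-1.47) and RT1-Da (-0.92) were called on deposited values alone, and RT1-Ba turned to 0.034 as the mean over its 4 probe sets. In whole liver, fewer cells of a type and less RNA per cell cannot be told apart.

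Of 12 Kupffer markers 3 were lower on deposited values, beside 8.23% of all genes: C1qb (-1.06; -0.68 without 16 h replicate 1), Lyz2 (-1.05) and Clec4f (-0.73), and 0 after quantile normalization; the summed level was 7.12 to 7.44 with vehicle and 6.29 to 6.71 at 16 h. Stellate and matrix markers summed to 6.34 to 6.72 and 5.24 to 6.02, with 4 of 16 lower, of which the collagen gene Col3a1 was retained (-1.36 ± 0.23; -0.73 after quantile normalization). Ecm1 (-1.31) was lower on deposited values alone, and Rgs5 (2.93) and Lrat were higher. Endothelial markers summed to 6.55 to 7.20 and 6.29 to 6.66, with Kdr lower on deposited values alone (-0.97) and Eng retained (-2.72; -2.42 after quantile normalization). Eng read 0.58, -2.27 and 1.39 at 16 h; it was -1.64 without replicate 2, and -1.23 with replicate 3 as the only 16 h rat (adjusted p = 0.407). After quantile normalization it was called in 2 of the 6 fits that left out 1 array. The hepatocyte list kept Apob (-0.79), whose 2 probe sets disagreed in sign, and had Foxa2 (-1.23) lower on deposited values alone. No marker list of B cells, T and NK cells, neutrophils, erythroid cells or cholangiocytes had a call on either scale; Cela1 (-2.72) was the 1 acinar marker called, on deposited values. The summed levels are on deposited values, where the median of all genes was -0.48. There the medians of the Kupffer, stellate and endothelial lists were -0.74, -1.25 and -0.83. After quantile normalization they were -0.23, -0.70 and -0.36, beside -0.08 for all genes. The part of cell makeup in the other results was not tested.

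**Figure D4:**
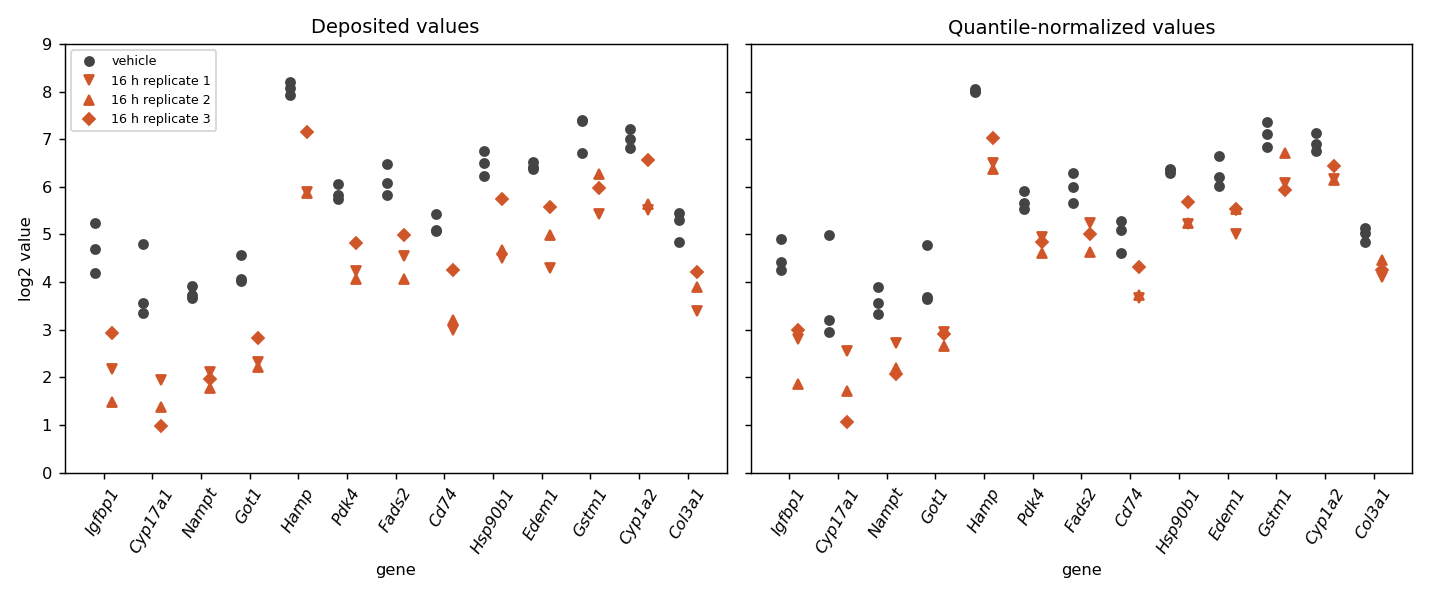
Log2 values of 13 retained falls in the 3 vehicle rats and the 3 rats at 16 h, as deposited and after quantile normalization. The treated rats lie below the controls in each gene on deposited values, and the gap is smaller after quantile normalization.

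The largest retained falls were of genes well below the array median at 16 h. Ackr3, a scavenger receptor for the chemokine CXCL12, went from 0.82, 0.89 and 1.40 to -3.69, -3.37 and -3.55, a fall of -4.57 ± 0.61 (adjusted p = 0.000252; -4.51 after quantile normalization). Both groups were tight and did not overlap. Dnmt1, the maintenance DNA methyltransferase, went from -0.34, 1.39 and 1.20 to -2.96, -3.59 and -3.93 (-4.24 ± 0.75, adjusted p = 0.00206). Zdhhc13, a palmitoyltransferase, fell by 4.03 and Atp11b, a phospholipid flippase, by 3.37; both were among the 23 falls called with each array left out.

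The other genes of the 12 largest were Hivep1 (-4.65), Ppp1r13b (-4.55), the innate immune kinase gene Ripk2 (-4.53), Ankrd10 (-4.20), Adgrg6 (-3.99), the valyl-tRNA synthetase gene Vars1 (-3.93), Nedd1 (-3.77) and Rpusd2 (-3.30). None of the 12 was called at 3, 6 or 10 h against the same vehicle rats. At 16 h their means lay between -4.49 and -1.85, in the lower part of the arrays' range. Adgrg6 and Vars1 each had a second probe set of the opposite sign.

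On deposited values the smallest adjusted p among retained genes belonged to Dipk2a, a kinase-like protein of the secretory pathway, which went from a mean of 4.53 to 1.82. Its difference was -2.71 ± 0.29 (adjusted p = 7.24e-06), or -2.23 after quantile normalization (adjusted p = 6.69e-05, where Eci3, Rpp21 and Angptl8 had smaller ones). It was -2.74 with replicate 3 as the only 16 h rat (adjusted p = 3.74e-05), and had been -1.55 and -1.46 at 6 and 10 h, both called. Other falls were called on both scales in each of the 6 fits that left out 1 array. They included Abca8a (-1.65), Adk (-1.06), Afm (-1.13), Btg1 (-1.12), Cd81 (-0.99), Ddc (-1.85) and Ldha (-1.12). Nkapd1 (-2.55), Pnrc1 (-2.02), Rapgef4 (-2.24), Slc27a2 (-1.13), Stra6l (-1.54), Wsb1 (-2.17) and Xist (-2.06) were also among them. So were Hamp, Serpina3n, Pdk4 and Hsp90b1, described above. These names were chosen after their values were seen.

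With replicate 3 as the only 16 h rat, all 138 retained genes kept their sign. They were picked from fits that held this rat and the same vehicle rats, so that outcome was largely fixed in advance. The fit with replicate 3 alone assumes that the lone rat varies like the other groups. Examples of deposited differences in it were 4.51 for Cyp2c22, 3.06 for Igfbp2 and 2.01 for Ifi27l2b. They were 6.70 for Sult1c3, 1.93 for Rpp21 and 2.19 for Gnmt. Among the falls they were -2.92 for Cyp17a1, -1.65 for Ddc, -1.81 for Nampt and -0.91 for Hamp. At earlier times, against the same vehicle rats, 2, 5 and 9 of the 17 rises were called at 3, 6 and 10 h, beside 0.102%, 0.161% and 0.139% of all genes called higher. Of the 121 falls 0, 3 and 18 were called, beside 0.00%, 0.117% and 0.556% of all genes called lower then. The 17 and 121 were picked with the same vehicle values that these contrasts use. The shares over all genes are thus not chance rates for them. At 3 h a count of 0 stands beside 0 genes called lower in all by limma on deposited values (436 genes had an unadjusted p under 0.05 in either direction), and 1 after quantile normalization.

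**Figure D5:**
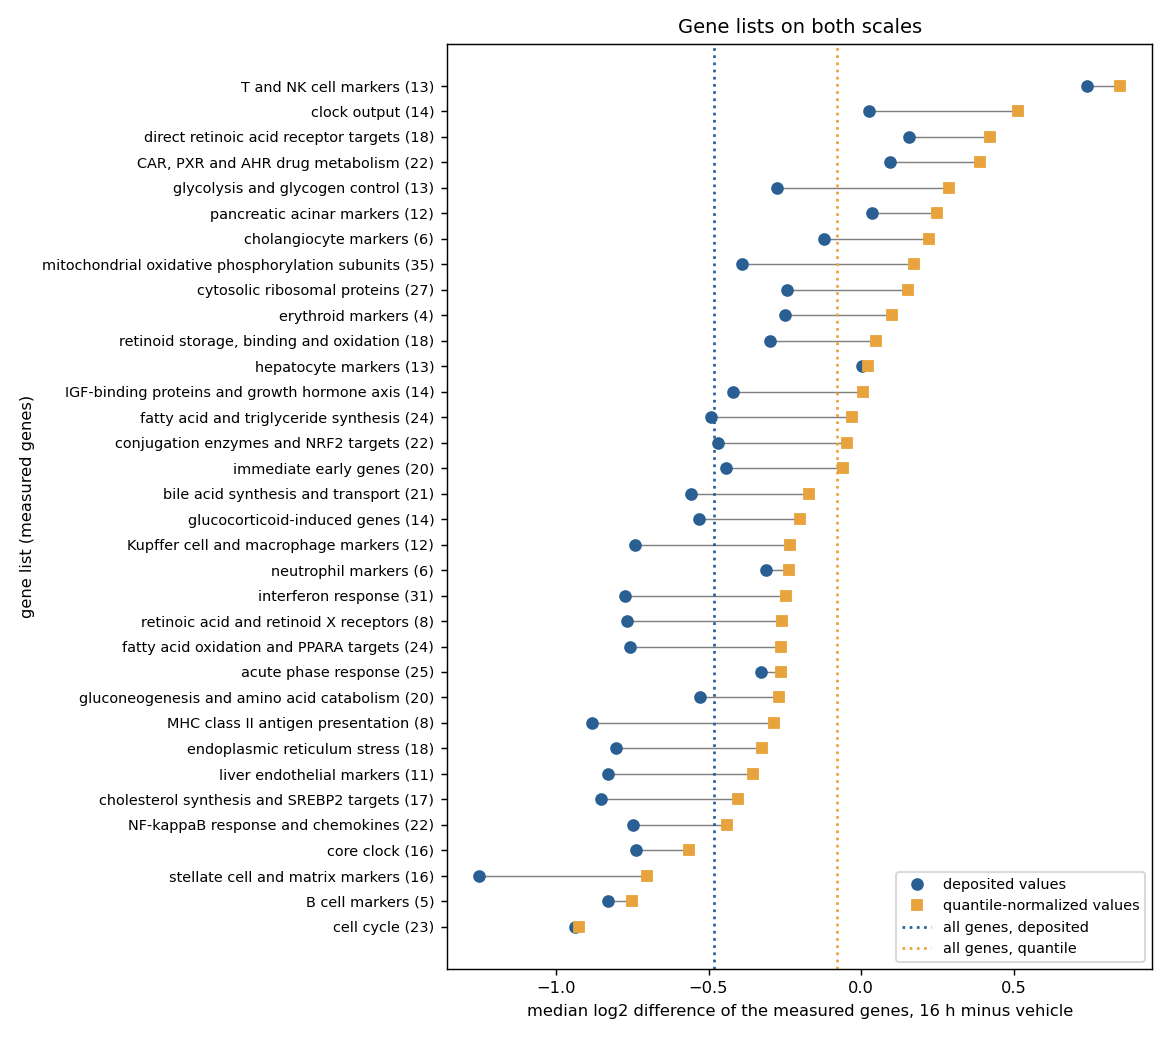
Median log2 difference (16 h minus vehicle) of the measured genes of each list on deposited values and after quantile normalization; dotted lines give the medians of all genes. Nearly all lists move to the right after quantile normalization, as the median of all genes does, from -0.48 to -0.08.

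Other genes were called on 1 scale only. On deposited values alone the largest rises were Epha8 (4.32), Slc23a4 (4.14), Hes2 (3.93), Pinlyp (3.52), Efna4 (3.46) and Oprl1 (3.31), and the largest falls Pwwp3b (-4.44), Cyp27b1 (-4.32), Tubgcp3 (-3.93), Tet3 (-3.59), Zfp758 (-3.43) and Cybb (-3.41). Their adjusted p after quantile normalization ran from 0.0572 for Cybb to 0.117 for Pwwp3b. Cybb, a subunit of the phagocyte oxidase, read -0.15, -4.06 and 2.17 at 16 h beside 2.57 to 2.88 with vehicle. Its treated rats lay far apart, though all 3 were below the controls; without replicate 2 the difference was -1.72.

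After quantile normalization alone the largest rises were Cyp3a9 (1.64), Nr1d2 (1.59), Crym (1.52), Gpt2 (1.45), Alas1 (1.41), the first enzyme of haem synthesis, and Atp23 (1.37). As deposited these lay at 0.80 to 1.03. The only 6 falls were Fgb, Pzp, Fga, Pigr, F2 and Fgg, at -0.62 to -0.36; they encode fibrinogen chains, prothrombin, a protease inhibitor and the immunoglobulin receptor Pigr. They lay at -0.56 to -0.06 as deposited. As deposited Fgb, Pzp, Pigr and F2 had non-overlapping groups, and Fga and Fgg did not.

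Immediate early, glucocorticoid, NF-kappaB, growth axis and cell cycle lists had 1 to 3 lower genes each on deposited values, beside 8.23% of all genes. Zfp36 (-1.62; -0.98 without 16 h replicate 2) was lower of 20 immediate early genes, Tsc22d3 (-1.12) and Klf9 (-0.91; -0.57 without vehicle replicate 3) with Igfbp1 of 14 glucocorticoid genes, and Icam1 (-1.39) and Nfkb1 (-1.78) with Ackr3 of 22 NF-kappaB genes. Nfkb1 read 0.11, -1.37 and 2.66 at 16 h beside 1.92 to 2.55 with vehicle. It kept its call only without 16 h replicate 3 (-2.88), was -0.86 without replicate 2, and was 0.41 with replicate 3 as the only 16 h rat. Igfals (-0.98) joined Igfbp1 among 14 growth axis genes, and Cdkn1a (-2.17), Cdkn1b (-0.90) and Pcna (-0.87) were lower of 23 cell cycle genes. Interferon response genes lower on deposited values included Isg15 (-1.48), Irf1 (-1.33) and Irgm (-1.06). After quantile normalization, of these genes only Igfbp1 and Ackr3 kept their calls. The lists of mitochondrial respiratory subunits and ribosomal proteins had 0 deposited calls of 35 and 27 by limma. They had 3 and 0 after quantile normalization, the 3 being higher. Rpl39, a retained rise, was not among the 27 ribosomal genes.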

How the data were processed

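The deposited values are log2 signals, made by the authors with GCOS per the submitters' processing notes (version not given). The log2 scale and the centring of each array on a median of 0 were read from the values. Array depth does not apply, and precision is limited by 3 arrays a group. The 16 kinetic arrays were fitted together with limma 3.58.1 in R 4.3.3, by lmFit with 1 mean per group, and eBayes took a trend with signal. A probe set was tested if at least 2 arrays had it above their 40th percentile (28869 of 31042). Each gene was represented by its probe set of highest mean. The quantile scale used normalizeQuantiles on the same arrays and probe sets. Alternatives were scale normalization, cyclic loess, arrayWeights, other filters, the replicate number as a block and arrays left out. Named genes were the 12 largest changes each way called on both scales, the 6 largest on 1 scale alone, fixed retinoid genes, receptor targets, the core clock and up to 4 called members of each other list. The members, the 34 lists and the tests were chosen with earlier results of these data known. Each sample was a separate rat. The pipeline was tested on simulated data. Gene names came from the platform annotation: 20832 probe sets had 1 gene, 436 several and 9831 none. Promoters came from RefSeq.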

Additional observations from a re-analysis of the deposited data

Results flagged for a closer look

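Levels at 16 h and 3 h differed, by the contrast of those groups in limma, in 8 of 23 genes examined on deposited values, beside 12.0% of all genes (1.65% after quantile normalization). Hour of the day and feeding cannot be told apart from time since at-RA in this contrast. The log2 difference was -3.43 for Cyp26a1 (adjusted p = 0.0215), -2.31 for Rarb (3.61e-05), -1.83 for Dhrs3 (8e-05), -2.97 for Cyp17a1 (2.74e-05), -2.37 for Nr0b2 (0.00118), -3.65 for Dact2 (0.00424), -1.17 for Tgm2 (0.00604) and -1.31 for Nrip1 (0.0115). After quantile normalization Cyp26a1, Tgm2 and Nrip1 were no longer called. All 3 rats at 16 h lay below all 3 at 3 h for each gene but Cyp26a1. The calls used the same arrays, so that separation follows in part from the selection and is not added support. The share of all genes separated in this way is not given here.

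The same 23 genes were examined among the 4 rats at 10 h, where 1 stood apart from the others in Sult1c3, where the gap to the nearest rat was 0.867 of the whole range, and in Dact2, where it was 0.857. Both exceed Dixon's 95% critical value, which chance exceeds in about 1 in 20 groups.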

How the results depend on the processing

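On deposited values 1765 probe sets were called between 16 h and vehicle; quantile normalization gave 323, scale normalization 1152, cyclic loess 270, the 6 arrays alone 28, no trend 40, arrayWeights 3289, and 16 h replicate 3 alone 127. Leaving out each array in turn gave 218 to 4483. For 16 h against 3 h the count of 2513 became 356 by quantile, 1211 by scale, 344 by cyclic loess, 839 with those arrays alone, 88 with no trend and 191 with replicate 3 alone, and 726 to 5036 with each array left out. After quantile normalization 323 became 38 with the 6 arrays alone, 38 with no trend, 166 with arrayWeights, 167 with replicate 3 alone, and 103 to 1368 with each array left out. The replicate numbers did not pair the samples (same-number r = 0.05, -0.01 and 0.05); with the replicate block the 3 counts were 1446, 2250 and 263. Of the 108 named genes called on deposited values, 44 stayed called by quantile, 81 by scale, 42 by cyclic loess, 7 with the 6 arrays alone and 97 with the block. Signs reversed as follows. By quantile: Rarb 0.082, Dhrs3 0.37, Tshz1 0.47, Csnk1d 0.11. By scale: Fga 0.055, Fgg 0.33, Tshz1 0.013. By cyclic loess: Fgg 0.16, Rarb 0.088, Dhrs3 0.34, Ucp1 -0.14, Nrip1 0.14, Tshz1 0.54, Csnk1d 0.19. By arrayWeights: Fgg 0.0099, Dact2 -0.67, Cebpe -0.30, Bhlhe40 -0.014. By the mean over probe sets: Stra6 -0.079, Rai14 0.058, Per3 0.54, RT1-Ba 0.034, Apob 0.86. With replicate 3 alone at 16 h: Rarb 0.085, Dhrs3 0.21, Cebpe -0.36, Fgf21 -1.0, Cry2 0.19, Bhlhe41 -0.34, Lpin2 0.15, Nfkb1 0.41. With each array left out the range was -0.12 to 0.59 for Bhlhe40, -0.30 to 2.29 for Cebpe, -0.97 to 1.75 for Dact2, -0.23 to 0.77 for Fgf21, -0.18 to 0.039 for Fgg, -0.27 to 0.93 for Nr0b2, -0.078 to 1.58 for Nr1d1, -0.90 to 0.16 for Pck1, -1.98 to 0.076 for Per3, -0.27 to 0.062 for Tshz1 and -0.98 to 1.22 for Ucp1. The causes were not tested. With 3 arrays a group, dim probe sets near the floor are the least precise.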
